A study of Mus musculus with 2 samples.

Results

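The genes described here are 10 genes of the unfolded protein response: Xbp1, Atf4, Ddit3 and Trib3, which encode transcription factors and a pseudokinase, Hspa5, Hsp90b1, Calr, Dnajb9 and Pdia4, which encode chaperones and folding enzymes, and Herpud1, which encodes a membrane protein of ER-associated degradation. They were chosen by name as a pathway, and all 10 were found among the 21855 genes of the deposited matrix. Each had UMIs (molecules counted by their barcode) in both libraries.

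The unfolded protein response is the signalling that a cell starts when unfolded proteins accumulate in the endoplasmic reticulum. It runs through the sensors IRE1, PERK and ATF6. IRE1 splices Xbp1 mRNA, and ATF6 induces chaperones such as Hspa5 (BiP). PERK favours translation of Atf4, and the ATF4 protein induces transcription of Ddit3 (CHOP) and Trib3. Plasma cells need the Xbp1 branch to secrete antibody, and in the kidney tubule the response is known from toxic and ischaemic injury. UMI counts per gene do not separate spliced from unspliced Xbp1 mRNA and hold no information on translation of Atf4.

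Kidneys of wild-type mice were profiled by droplet single-cell RNA sequencing, with 1 library from a control kidney and 1 from a kidney with nephropathy induced by folic acid (FA), a vitamin that injures tubules at high dose. The series asks about the gasdermins GSDMD and GSDME in that injury. Both groups carry the same wild-type genotype, while the labels leave out age, FA dose, the time after FA and how many animals each library holds. With 1 library per group no test was possible, so every difference is one between these 2 libraries, and all intervals are 95% intervals that cover counting error only.

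The control library held 9681 barcodes and 63646459 UMIs, and the FA library 18997 barcodes and 84138607 UMIs; 54 barcode sequences occur in both. After filtering, 5808 control and 13503 FA cells remained, with median depths of 4885.5 and 2917 UMIs per cell. They formed 42 clusters, of which 33 were given a class name ending in "-like" from marker genes, while unnamed clusters held 6.18% of control and 28.5% of FA cells. The mitochondrial share of UMIs was 12.2% in control and 4.36% in FA, and the summed list of 20 dissociation and immediate early genes had 18 genes higher in FA by 1.5-fold or more. UMIs of Xist, the RNA of the silenced X, numbered 15 in control against 104149 in FA, and those of the Y-linked Ddx3y 3928 against 0, so that sex and FA treatment cannot be told apart. Levels are given as CPM, the UMIs of a gene scaled to 1000000 summed UMIs of a library, class or cluster. A lower level of a gene in a whole library cannot be told apart from fewer cells that express it, nor a higher level from more such cells.

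In the GENCODE annotation of GRCm38 (mm10), Hspa5 lies at chr2:34771970-34777547, Trib3 at chr2:152337422-152344032, Pdia4 at chr6:47796141-47813430 and Calr at chr8:84841850-84846934. Herpud1 lies at chr8:94386438-94395377, Hsp90b1 at chr10:86690209-86705509 and Xbp1 at chr11:5520659-5525893. Dnajb9 lies at chr12:44205559-44210326 and Atf4 at chr15:80255184-80257541. The annotation holds 2 overlapping genes named Ddit3 on the same strand, at chr10:127290774-127296288 and chr10:127290829-127293753, and the matrix has 1 line of that name, so which of them its UMIs came from is uncertain. All of these are protein-coding.

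Several of these genes are textbook targets of elements in their promoters, so the 250 bases before the RefSeq start (assembly GRCm38.p6) are shown for the 4 members in which a script found such an element. Capitals mark the matched letters, and each sequence is on the strand of its gene. The ER stress response element was searched as CCAAT and CCACG with any 9 bases between them, its second form as ATTGG and CCACG with any 1 base between them, the composite C/EBP-ATF site as TTGCATCA, and the XBP1 and ATF6 element as TGACGTGG, each on both strands.
Hspa5, chr2:34771840-34772089, plus strand: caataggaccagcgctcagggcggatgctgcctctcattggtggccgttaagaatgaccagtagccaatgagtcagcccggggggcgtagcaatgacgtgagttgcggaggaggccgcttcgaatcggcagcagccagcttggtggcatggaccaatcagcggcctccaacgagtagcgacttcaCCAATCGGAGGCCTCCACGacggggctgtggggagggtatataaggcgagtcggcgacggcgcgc
Hsp90b1, chr10:86705445-86705694, minus strand: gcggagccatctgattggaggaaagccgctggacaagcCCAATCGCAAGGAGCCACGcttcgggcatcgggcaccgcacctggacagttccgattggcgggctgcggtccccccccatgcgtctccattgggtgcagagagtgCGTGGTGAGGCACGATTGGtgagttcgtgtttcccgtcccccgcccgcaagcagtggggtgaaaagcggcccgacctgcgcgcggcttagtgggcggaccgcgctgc
Calr, chr8:84846932-84847181, minus strand: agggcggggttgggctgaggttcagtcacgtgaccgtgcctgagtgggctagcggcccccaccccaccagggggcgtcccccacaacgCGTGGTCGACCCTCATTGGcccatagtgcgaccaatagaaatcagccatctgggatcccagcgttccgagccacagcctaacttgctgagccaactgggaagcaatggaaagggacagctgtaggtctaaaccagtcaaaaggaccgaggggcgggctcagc
Herpud1, chr8:94386179-94386428, plus strand: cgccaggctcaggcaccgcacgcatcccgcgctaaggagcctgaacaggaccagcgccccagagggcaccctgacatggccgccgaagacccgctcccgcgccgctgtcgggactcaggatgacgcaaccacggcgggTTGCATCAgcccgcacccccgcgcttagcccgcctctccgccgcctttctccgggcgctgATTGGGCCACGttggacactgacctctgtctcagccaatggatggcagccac

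The ER stress response element stood once in Hspa5, at positions -65 to -47 from the RefSeq start. Hsp90b1 held 2 copies, at -212 to -194 on the strand of the gene and at -107 to -89 on the opposite strand, and Calr held 1 copy on the opposite strand at -162 to -144. Over 32851 promoters of 300 bases, this motif was found in 39, a share of 0.119%. Herpud1 carried the second form at -52 to -42, which 12 promoters (0.0365%) hold, and TTGCATCA at -112 to -105, which 294 promoters (0.895%) hold. TGACGTGG was found in 222 promoters (0.676%) and in none of the 10 members. A match is a description of these letters and says nothing of binding in these cells.

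Xbp1, the transcription factor of the IRE1 branch, was highest by far in the plasma cell-like cells of both libraries. Its level there was 1439 CPM (95% Poisson interval 1372 to 1509) in control and 2010 CPM (1936 to 2086) in FA. Among the 31 profiles of a class in a library with 20 or more cells, the median was 114 CPM and the lowest level was 42.7 CPM, in B cell-like cells of control. Monocyte-like cells came next, with 257 CPM (212 to 309) in control and 313 CPM (294 to 332) in FA. Plasma cell-like cells made up 0.913% of kept control cells and 0.815% of kept FA cells but held 35.6% and 26.8% of all Xbp1 UMIs.

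Atf4, the transcription factor translated on PERK signalling, had a flatter profile, with 300.2 CPM at the highest (B cell-like cells of FA), a median of 145 CPM and 52.0 CPM (20.9 to 107) at the lowest, from 7 UMIs in the 38 control cells of the injured tubule-like clusters. Those 38 cells had 0 UMIs of Havcr1 and Krt20 and 1 of Lcn2, so their markers do not bear out the name of the class. Natural killer cell-like cells of FA stood at 275 CPM, and proximal tubule-like cells were low in both libraries, at 57.6 CPM in control and 67.9 CPM in FA. Of the neighbouring profiles in the order of its levels, 30 pairs had overlapping intervals, so the order is not resolved. Plasma cell-like cells lay below the median in control, at 97.2 CPM, and above it in FA, at 174 CPM. Immunoglobulin genes took 71.3% and 52.1% of their UMIs, which lowers these levels, as described below.

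Ddit3 encodes CHOP, a factor linked to death under prolonged ER stress. Neutrophil-like cells of the FA library had the most, 260 CPM (225 to 298), and natural killer cell-like cells of that library came second with 169 CPM (148 to 192). The median over the 31 profiles was 47.4 CPM. The lowest level was 16.7 CPM, in distal convoluted tubule-like cells of control, and plasma cell-like cells of control stood beside it at 17.4 CPM with an overlapping interval. Immunoglobulin genes took 71.3% of the UMIs of those plasma cell-like cells, which lowers their CPM, so this place depends on the scale. Neutrophil-like cells could not be compared between libraries, because the control library held 1 such cell.

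Trib3 encodes a pseudokinase induced by ATF4 and CHOP. It was close to the limit of detection, with 70 UMIs in the kept control cells and 57 in the kept FA cells. Endothelial-like cells held 47 of the control UMIs, at 15.4 CPM (11.3 to 20.5), and 2 FA UMIs, at 11.3 CPM (1.36 to 40.7). The highest level was 24.9 CPM (10 to 51.4) from 7 UMIs in intercalated-like cells of FA. Proximal tubule-like cells had 0 UMIs in both libraries, which at a floor of 3 counts allows up to 0.169 CPM in control and 1.62 CPM in FA. Plasma cell-like cells had 0 UMIs in control and 1 in FA.

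Hspa5 encodes BiP, the main chaperone of the endoplasmic reticulum. Its level was highest in plasma cell-like cells of FA at 2592 CPM (2508 to 2678), and dendritic-like and macrophage-like cells of FA followed at 1271 and 1093 CPM. The median was 536 CPM, and the lowest of the 31 profiles was that of proximal tubule-like cells of control, at 147 CPM (142 to 153). Among the 10 highest class levels, plasma cell-like cells of control, at 890 CPM, were the only control profile.

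Hsp90b1, the HSP90 chaperone of the endoplasmic reticulum (GRP94), reached 6235 CPM in plasma cell-like cells of FA and 2053 CPM in those of control. The median was 448 CPM. Podocyte-like cells of FA came next at 1242 CPM, then endothelial-like cells of FA at 1035 CPM and podocyte-like cells of control at 945 CPM, with overlapping intervals for the last 2. The lowest level was 127 CPM, in neutrophil-like cells of FA. Pdia4, a protein disulfide isomerase, had plasma cell-like and podocyte-like cells of both libraries as its 4 highest profiles: 799 CPM and 359 CPM in plasma cell-like cells of FA and control, then 192 CPM and 179 CPM in podocyte-like cells. Its median was 61.8 CPM and its lowest level 9.14 CPM, again in neutrophil-like cells of FA.

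Calr encodes calreticulin, a lectin chaperone that also binds calcium. It ranged from 110 CPM in neutrophil-like cells of FA to 964 CPM in plasma cell-like cells of FA, with a median of 286 CPM. Injured tubule-like cells of FA came after the highest, at 724 CPM, and plasma cell-like cells of control stood at 369 CPM, below podocyte-like cells of control at 592 CPM. Dnajb9, a J-domain cochaperone of BiP, ranged from 23.2 CPM in proximal tubule-like cells of control to 179 CPM in plasma cell-like cells of FA, with a median of 47.8 CPM. Plasma cell-like cells of control stood next to the highest for Dnajb9, at 130 CPM.

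Herpud1 was highest in plasma cell-like cells too, at 553 CPM in FA and 437 CPM in control, against a median of 121 CPM. Unlike the chaperone profiles, the next levels were those of proximal tubule-like cells, at 225 CPM (218 to 232) in control and 199 CPM (179 to 220.3) in FA. Natural killer cell-like and macrophage-like cells of control followed at 198 CPM (128 to 292) and 195 CPM (182 to 209). Their intervals overlap that of proximal tubule-like cells of FA, so the order there is not resolved. Proximal tubule-like cells held 52.3% of the Herpud1 UMIs of control with 43.7% of all UMIs. The lowest level was 46.3 CPM, in intercalated-like cells of FA.

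**Figure D1:**
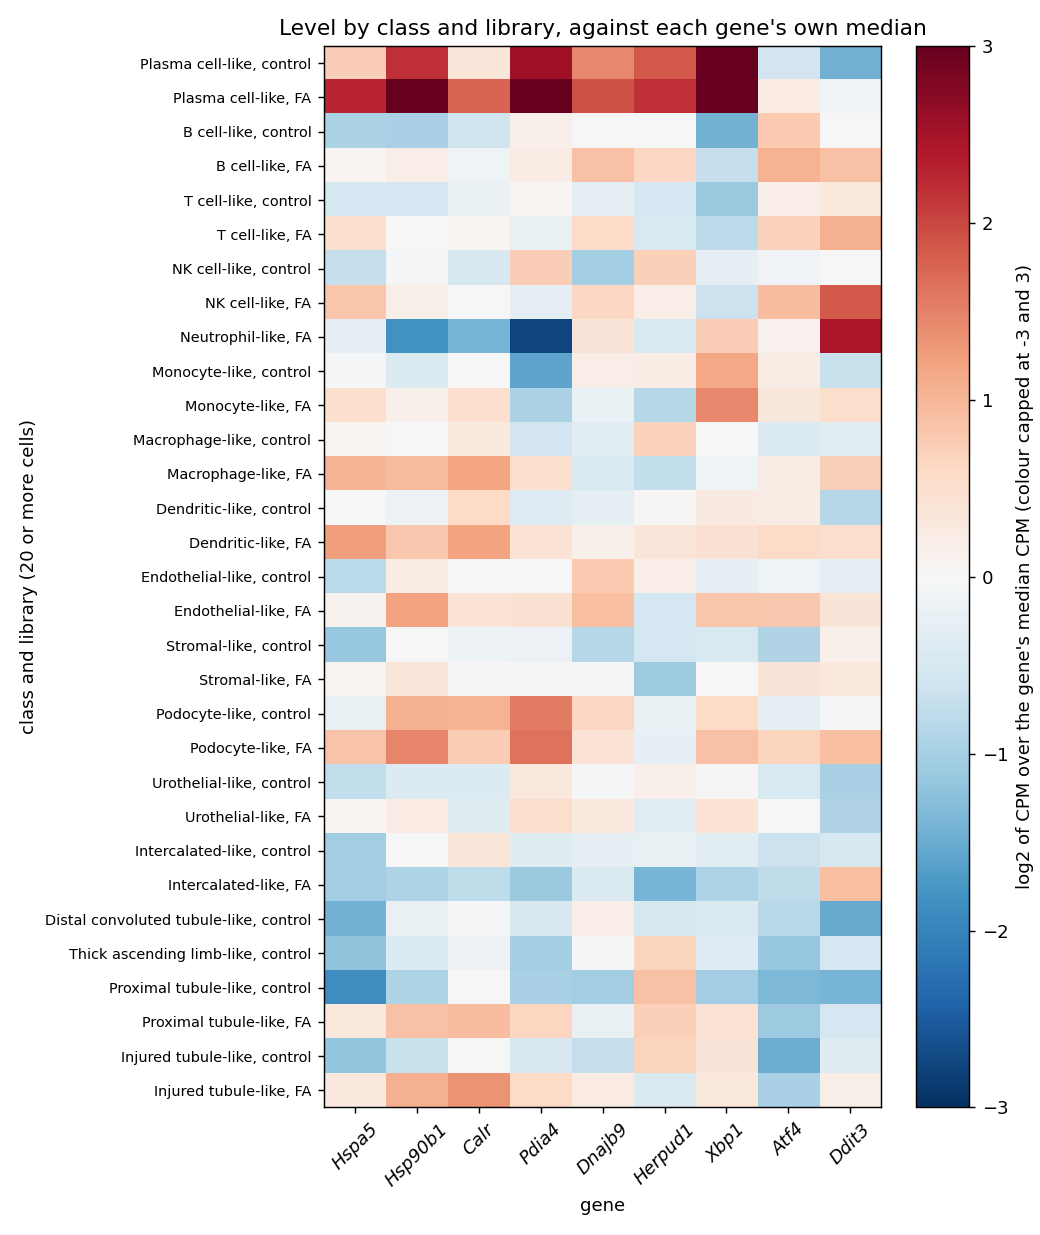
Level of 9 of the 10 genes (columns; Trib3 is left out because most of its levels are 0) in 31 profiles of a class in a library (lines), as log2 of CPM over that gene's own median, with colour capped at -3 and 3. Plasma cell-like cells of both libraries are the darkest red for Xbp1, Hsp90b1 and Pdia4, and proximal tubule-like cells of control are blue for Hspa5.

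Plasma cell-like cells were set against all other cells of the same library, a comparison within 1 library that does not set FA against control. The class rested on 1 cluster of 53 control and 110 FA cells, led by Jchain and Igkc. All 13 plasma cell markers were above 0 in both libraries, among them Sdc1 at 153 and 98.0 CPM and Prdm1 at 77.2 and 110 CPM. In control, 6 of the 9 members measured were at least 1.5-fold higher in plasma cell-like cells and 1 was lower. Over all genes measured (20 or more UMIs over both groups), 4.02% were higher and 83.5% lower. In FA, 7 of 10 were higher and 1 lower, beside 6.55% and 72.3% of all genes.

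For Xbp1 the ratio of plasma cell-like to all other cells was 18.1 (17.1 to 19.2) in control and 15 (14.3 to 15.6) in FA. For Pdia4 it was 7.70 (6.92 to 8.55) and 9.79 (9.17 to 10.5), and for Hsp90b1 5.96 (5.71 to 6.23) and 8.80 (8.60 to 9.01). Hspa5 stood closer to the other cells, with ratios of 3.34 and 3.16, as did Dnajb9 with 3.16 and 3.68. Herpud1 had ratios of 2.42 in control and 5.81 in FA, and Calr 1.22 and 2.05. Atf4 had ratios of 1.05 (0.867 to 1.26) and 0.999 (0.875 to 1.13), and Ddit3 had ratios below 1 on this scale, at 0.617 (0.380 to 0.947) and 0.572 (0.437 to 0.737).

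Immunoglobulin genes took 71.3% of the UMIs of plasma cell-like cells in control and 52.1% in FA, which lowers the CPM of every other gene. When mitochondrial and immunoglobulin UMIs were left out of the totals, the Ddit3 difference turned to the other side, with log2 ratios of 0.96 in control and 0.21 in FA. The Xbp1 log2 ratios became 5.84 and 4.92 on that scale, and those of Atf4 1.73 and 1.02, so that Atf4 was higher in plasma cell-like cells on that scale.

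Against B cell-like cells, the lineage that gives rise to plasma cells, 7 of 9 members were higher and 2 lower in each library. The shares over all genes were 5.52% higher and 84.4% lower in control, and 8.80% higher and 68.7% lower in FA. This comparison was chosen after its values were seen. Xbp1 was 33.7-fold (22.7 to 52.2) higher in control, from 42.7 CPM in B cell-like to 1439 CPM in plasma cell-like cells, and 28.3-fold (22.5 to 36.0) higher in FA. Hsp90b1 was 9.03-fold and 12.1-fold higher, Pdia4 5.25-fold and 11.1-fold, and Hspa5 3.22-fold and 4.61-fold. Atf4 had ratios of 0.389 and 0.579 and Ddit3 of 0.365 and 0.50, but without mitochondrial and immunoglobulin UMIs their log2 ratios were 0.37 and 0.20 for Atf4, and 0.28 and -0.01 for Ddit3.

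**Figure D2:**
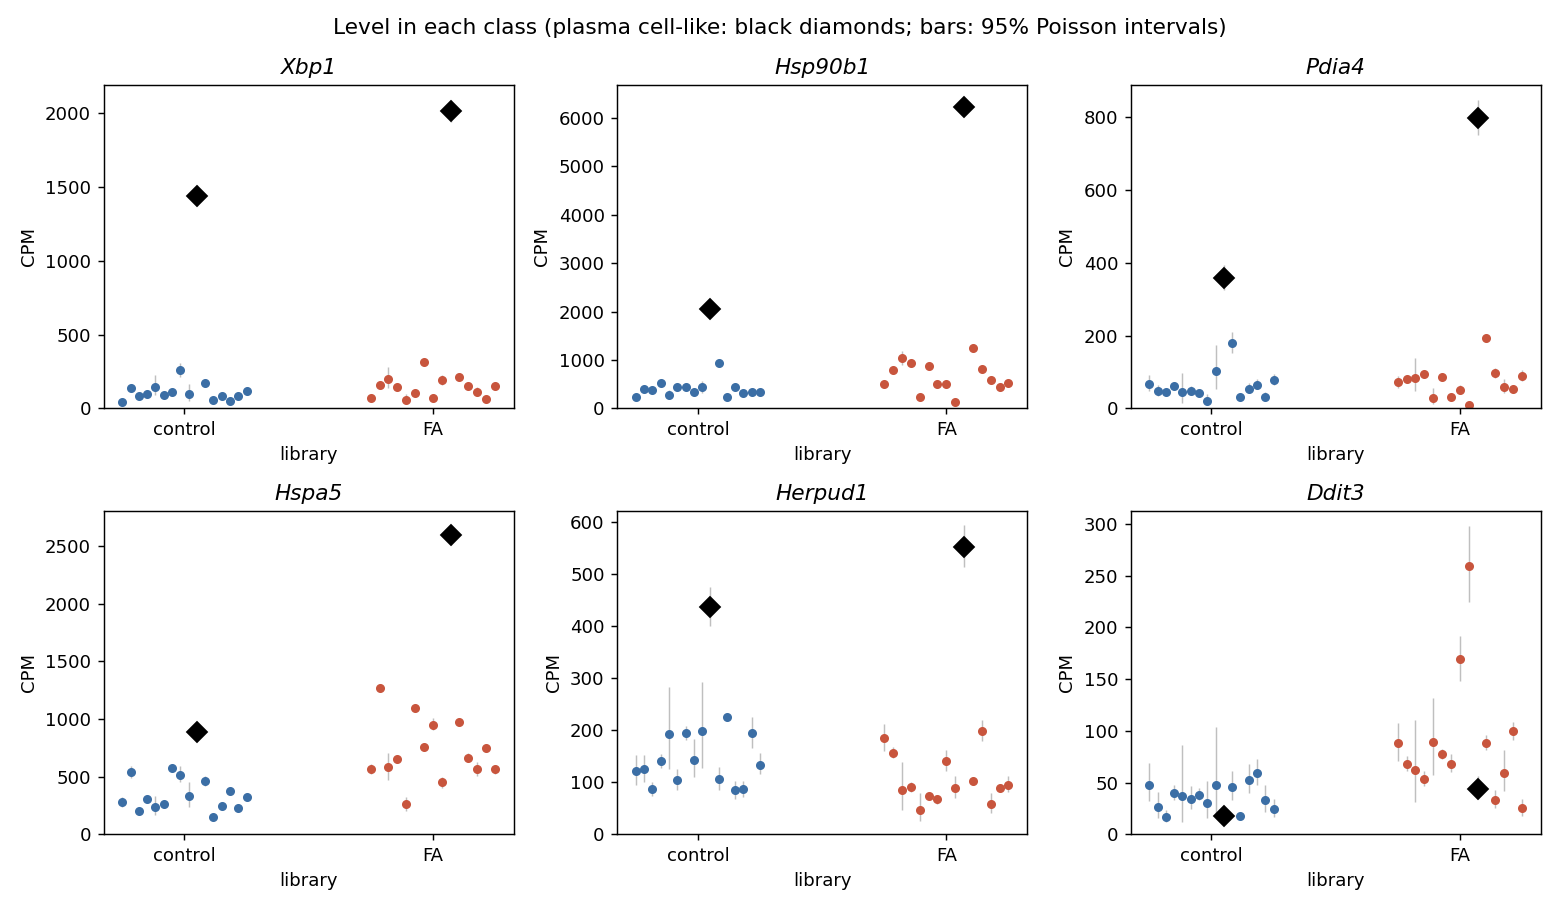
Level in CPM of 6 genes in each class of the control (blue) and FA (red) library, with plasma cell-like cells as black diamonds and bars for 95% Poisson intervals. The diamonds stand above every other class for Xbp1, Hsp90b1, Pdia4 and Herpud1 in both libraries (2010 and 1439 CPM for Xbp1) while for Ddit3, at 17.4 and 44 CPM, they do not.

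Of the 73 other pathway genes listed, 71 were measured in the comparison of plasma cell-like with other cells of control, where 32 were higher and 25 lower, beside 4.02% and 83.5% of all genes. In FA 39 of 73 were higher and 16 lower, beside 6.55% and 72.3%. By branch, 10 of 14 degradation genes, 9 of 17 folding genes and 9 of 11 genes of IRE1 signalling and translocation were higher in control, against 0 of 6 genes around ATF6 and 4 of 23 genes of PERK signalling and the integrated stress response. In FA the counts were 11 of 14, 12 of 17, 9 of 11, 2 of 6 and 5 of 25. These counts depend on the scale. In control, the median log2 ratio of the PERK and stress response list was -1.27 with all UMIs in the totals and 0.39 without mitochondrial and immunoglobulin UMIs, and that of the genes around ATF6 was -0.83 and 0.83, against -1.81 and -0.15 over all genes. In FA the PERK and stress response list had medians of -0.60 and 0.42, against -1.22 and -0.20 over all genes. The highest ratios in control were those of Derl3, a derlin of the degradation channel, at 304, the disulfide isomerase Txndc5 at 37.7, and Edem2 and Edem1, which mark misfolded glycoproteins, at 15.4 and 13.9. In FA they were Derl3 at 215, the prolyl isomerase Fkbp11 at 206, Txndc5 at 45 and Creld2 at 17.

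The lowest ratios belonged to the PERK and stress response list, apart from the isomerase Pdia5 in control, which had 2 UMIs in plasma cell-like cells and a ratio of 0.0791 (0.00956 to 0.286). In control, Atf3 had 1 UMI there and a ratio of 0.00275 (6.97e-05 to 0.0153), Nupr1 had 2 UMIs and a ratio of 0.0306 (0.0037 to 0.111), and Vldlr had 0, which is at least 18-fold lower. In FA, Nupr1 had 0 UMIs, at least 186-fold lower, while Atf3 had a ratio of 0.0408, Cebpb of 0.0536 and Slc7a11, with 3 UMIs, of 0.0947 (0.0195 to 0.277). Atf3 is also an immediate early gene, and 16 of the 20 dissociation and immediate early genes were lower in plasma cell-like cells in each library on this scale. Without mitochondrial and immunoglobulin UMIs, the median log2 ratio of that list was 0.07 in control and -0.55 in FA.

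Between the libraries, plasma cell-like cells of FA had higher CPM for most members, and for most genes. Of 9 members measured, 6 passed 1.5-fold upward in FA and 0 downward, beside 61.7% of all genes higher and 4.12% lower. The median log2 ratio was 1.15 over the members and 0.77 over all genes. Hsp90b1 went from 2053 to 6235 CPM, a ratio of 3.04 (2.90 to 3.18), and Hspa5 from 890 to 2592 CPM, a ratio of 2.91 (2.72 to 3.12). Calr followed with 2.62 (2.35 to 2.92), Ddit3 with 2.52 (1.51 to 4.36), Pdia4 with 2.23 (1.99 to 2.49) and Atf4 with 1.79 (1.43 to 2.25). Below 1.5 were Xbp1 at 1.40 (1.31 to 1.48), Dnajb9 at 1.38 and Herpud1 at 1.27.

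Without mitochondrial and immunoglobulin UMIs in the totals, 3 of the 9 stayed past 1.5-fold: Hsp90b1 at a log2 ratio of 0.83, Hspa5 at 0.77 and Calr at 0.62. No share of all genes is given on that scale, where the median log2 ratio was 0.39 over the members and -0.0027 over all genes. On that scale Xbp1 (-0.29), Dnajb9 (-0.31) and Herpud1 (-0.43) were below 0. Median depth was 22008 UMIs per cell in control and 12317.5 in FA, and the summed dissociation and immediate early genes stood at 4854 and 9927 CPM. Their part in the differences was not tested. In cells thinned to 1000 UMIs each, 54.7% (40.4 to 68.4) of control and 77.1% (67.9 to 84.8) of FA plasma cell-like cells had a UMI of Hspa5, where the unthinned shares were 96.2% and 97.3%. Thinning kept immunoglobulin UMIs, 71.3% of the summed UMIs in control and 52.1% in FA. The thinned shares therefore depend on that scale, as CPM does. With all UMIs in the totals again, 45 of the 63 other pathway genes measured were higher and 2 lower, beside the 61.7% and 4.12% of all genes. Their median log2 ratio was 0.96, and 0.19 without mitochondrial and immunoglobulin UMIs, where the medians over all genes were 0.77 and -0.0027. They were led by Fkbp11 at 4.86, the chaperone Hyou1 at 4.51 and Pdia6 at 3.19, after Atf3 at 89.4 (15.7 to 3565) from 1 UMI in control. The lowest were Slc3a2 at 0.723, Edem2 at 0.852, Edem1 at 1.06 and Derl3 at 1.21.

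Over each whole library, 6 of the 10 members were higher in FA by 1.5-fold or more and 2 were lower. Of all genes measured, 20.8% were higher and 30.9% lower. Hspa5 had the highest ratio of the members, from 285 to 862 CPM, a ratio of 3.02 (2.96 to 3.09), and Ddit3 had a ratio of 2.72 (2.55 to 2.90), from 28.0 to 76.0 CPM. Hsp90b1 had a ratio of 2.13, Atf4 of 1.88, Pdia4 of 1.77 and Calr of 1.58. Xbp1, at 1.5 after rounding, lay just under the limit, and Dnajb9 had a ratio of 1.18. Herpud1 was lower, from 188 to 106 CPM, a ratio of 0.564 (0.546 to 0.584), and so was Trib3, from 70 to 57 UMIs, with a ratio of 0.570 (0.394 to 0.820). The libraries differed in their make-up: proximal tubule-like cells were 37.5% of kept control cells and 3.73% of kept FA cells. They held 43.7% of control and 3.19% of FA UMIs, and their Hspa5 level in control was the lowest, 147 CPM. Macrophage-like cells held 10.4% and 24.4% of UMIs and dendritic-like cells 1.87% and 9.26%, with Hspa5 at 571 and 536 CPM in control. The part of the make-up in the whole-library ratios was not tested. Endothelial-like cells, which held 67.1% of the control UMIs of Trib3, were 14.2% of kept control and 0.437% of kept FA cells. Within them the Trib3 ratio was 0.732 (0.0861 to 2.79), an interval that holds 1.

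The other pathway genes had 24 of 73 higher and 5 lower over the whole library, beside 20.8% and 30.9% of all genes. Higher were 13 of 25 in the PERK and stress response list, 7 of 17 in folding and 1 of 14 in degradation. The highest were Slc7a11, the cystine transporter, at 30.3, Nupr1 at 7.43, Cebpb at 6.78 and the amino acid transporter Slc7a5 at 6.50. The lowest were Vldlr at 0.272, Selenom at 0.277, Pdia5 at 0.311 and Aldh1l2 at 0.488.

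Within proximal tubule-like cells the folding genes stood much higher in FA, where the class held 503 cells, nearly all from cluster 18. The unnamed FA clusters 2, 10 and 27, outside this class, held 1071, 684 and 239 cells. They had lower Hspa5 levels, given below, which in clusters 10 and 27 were no higher than in control cells of the class. At clustering resolution 0.5 the FA cells of the class gave no value, since too few were left in it. The ratios here therefore describe cluster 18 and not all tubule cells of FA. Of 9 members measured, 7 passed 1.5-fold upward and 0 downward, where 30% of all genes were higher and 24% lower. The median log2 ratio was 0.92 over the members and 0.09 over all genes. Hspa5 stood at 147 CPM in control and 663 CPM (626 to 701) in FA, a ratio of 4.49 (4.19 to 4.81). Hsp90b1 stood at 235 and 818 CPM, a ratio of 3.48 (3.28 to 3.69), and Pdia4 at 31.4 and 96.5 CPM, a ratio of 3.07 (2.58 to 3.64). Xbp1, at 55.7 and 153 CPM, had a ratio of 2.75 (2.40 to 3.14). Smaller ratios were those of Calr at 1.89 (1.77 to 2.03), Ddit3 at 1.86 (1.39 to 2.44) and Dnajb9 at 1.77 (1.37 to 2.26).

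Atf4 and Herpud1 did not pass 1.5-fold in these cells, with ratios of 1.18 (0.972 to 1.42) and 0.885 (0.793 to 0.984). After thinning each cell to 1000 UMIs, 11.8% (10.4 to 13.2) of control and 40.6% (36.2 to 45.1) of FA cells had a Hspa5 UMI, against 48.8% and 71.4% without thinning. For Xbp1 the thinned shares were 5.09% and 13.1%, and for Ddit3 1.5% (1.02 to 2.13) and 1.63% (0.707 to 3.19), which overlap although the CPM of Ddit3 was 18 and 33.4. Of 67 other pathway genes measured, 32 were higher and 7 lower, beside 30% and 24% of all genes. Higher were 13 of 17 folding genes, 9 of 19 in the PERK and stress response list and 4 of 14 in degradation. So were 3 each of 11 in the IRE1 list and of 6 around ATF6. Atf3 was highest at 26.2, then the chaperone Sdf2l1 at 6.47, Ppp1r15a, which undoes PERK signalling, at 4.92, and the secreted Manf at 4.74. The lowest were the serine synthesis enzyme Phgdh at 0.421, Sec61b of the translocon at 0.478, Ube2j1 at 0.539 and Vcp at 0.552.

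The control and FA cells of this class came from different clusters. Control cells lay in clusters 8, 14, 22, 24 and 29, and nearly all of the 503 FA cells in cluster 18. Beside the ratios, median depth was 6546 and 3227 UMIs per cell, the mitochondrial share 19.3% and 18.5%, and the summed dissociation and immediate early genes 1406 and 1536 CPM, although 12 of those 20 genes were higher in FA. The summed proximal tubule markers went from 21547 to 12142 CPM, with 0 and 1 of 15 at 0, and the injured tubule markers from 1252 to 29741 CPM, with 2 and 1 of 13 at 0. Macrophage markers stood at 790 and 1079 CPM, with 0 and 1 of 9 at 0. The part of these differences in the ratios was not tested.

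**Figure D3:**
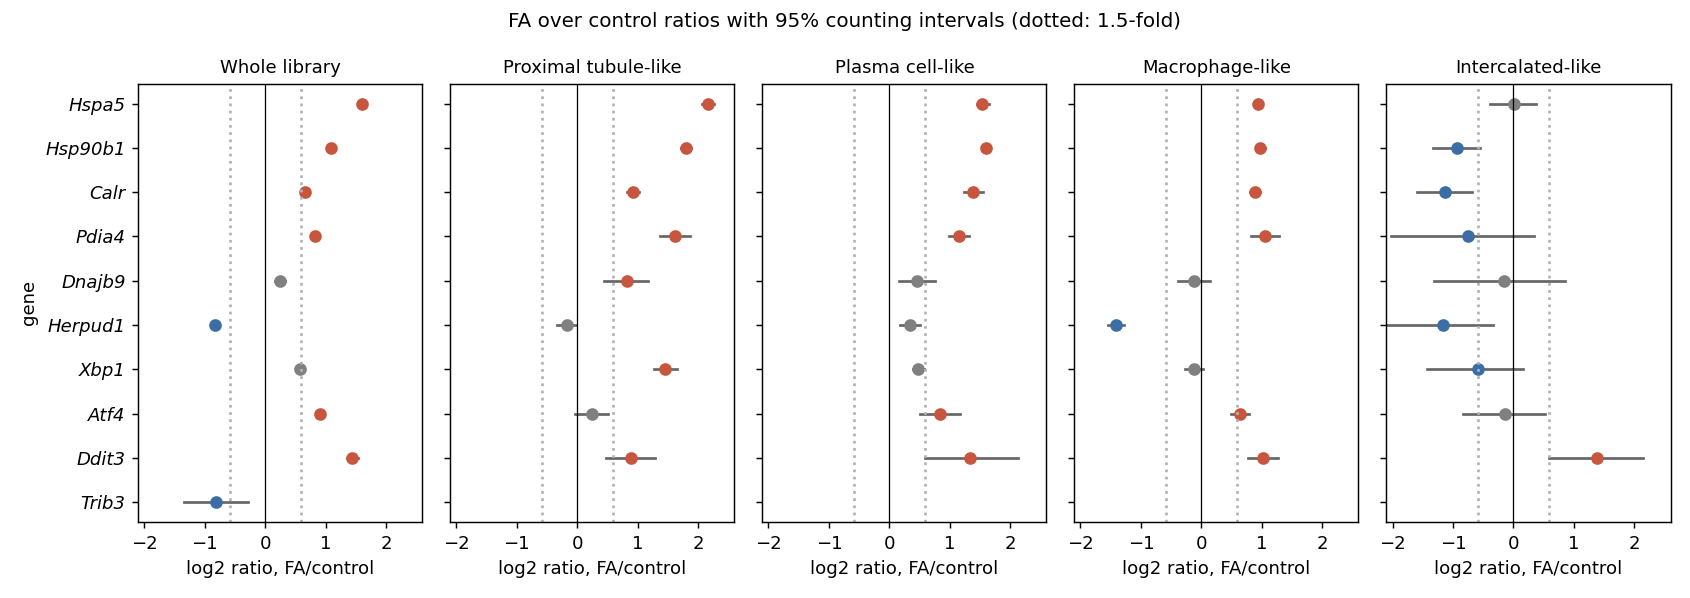
log2 of the FA over control ratio of each gene in the whole library and in 4 classes, with 95% counting intervals, red at 1.5-fold or more, blue at 1.5-fold or more below, grey between, and dotted lines at 1.5-fold. Proximal tubule-like cells have Hspa5 at 2.17 and 7 red points, while intercalated-like cells have 5 blue points and 1 red point.

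Single clusters of the tubule showed the spread inside the classes. In the 5 control clusters, Hspa5 ranged from 31.9 CPM (25.9 to 38.9) in cluster 14, which is led by Ass1 and Fbp1, to 216 CPM (198 to 236) in cluster 24, which is led by Kap and Slc7a13. In cluster 18 of FA it stood at 668 CPM (631 to 706), above all 5. Cluster 3 of FA, led by Spp1 and the fibrinogen genes Fgg, Fgb and Fga, had 1111 CPM (1063 to 1160). Cluster 34 of FA, led by Havcr1, Vcam1 and C3, had 358 CPM (328 to 389), and cluster 23 of FA, led by Lcn2, Mt2 and Clu, had 196 CPM (168 to 228).

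Hsp90b1 and Calr had the same cluster at the top. In cluster 3, Hsp90b1 stood at 1618 CPM and Calr at 1248 CPM, against 820 CPM and 542 CPM in cluster 18, and 515 and 424 CPM in cluster 34. The control clusters ranged from 42.7 to 354 CPM for Hsp90b1 and from 46.9 to 411 CPM for Calr, each lowest in cluster 14. Pdia4 followed with 165 CPM in cluster 3, 97.5 CPM in cluster 18 and 50.7 CPM in cluster 34. Cluster 3 also had the lowest depth of these clusters, a median of 1393 UMIs per cell, and a mitochondrial share of 30.7%, against 18.6% in cluster 18 and 2.90% in cluster 34. The part of depth and mitochondrial share in these levels was not tested.

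Ddit3 had another order. It was highest in cluster 34, at 89.6 CPM (75.2 to 106), and in the unnamed cluster 10, at 81.9 CPM (70.3 to 95), and lower in cluster 3, at 25.6 CPM (18.8 to 34.1). Atf4 likewise stood at 101 CPM (85.5 to 118) in cluster 34 and at 45.2 CPM (36.0 to 56.1) in cluster 3. Herpud1 was lower in each injured tubule-like cluster of FA than in cluster 18, where it had 198 CPM (178 to 220): 112 CPM in cluster 3, 96.2 CPM in cluster 34 and 33.2 CPM in cluster 23. The unnamed FA clusters 2, 10 and 27, which scored best for the injured (2 and 10) or the proximal tubule list (27), had Hspa5 at 268, 117 and 143 CPM and Herpud1 at 85.6, 38.6 and 59.1 CPM. The proximal tubule score of cluster 27 was -0.384, so those markers were on average lower there than in the other cells. Clusters 2 and 10 had a score for the injured tubule list of 0.775 and 0.860, above the 0.633 of cluster 3, and stayed unnamed because none of their 10 leading genes was on that list, as 1 was for cluster 3.

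**Figure D4:**
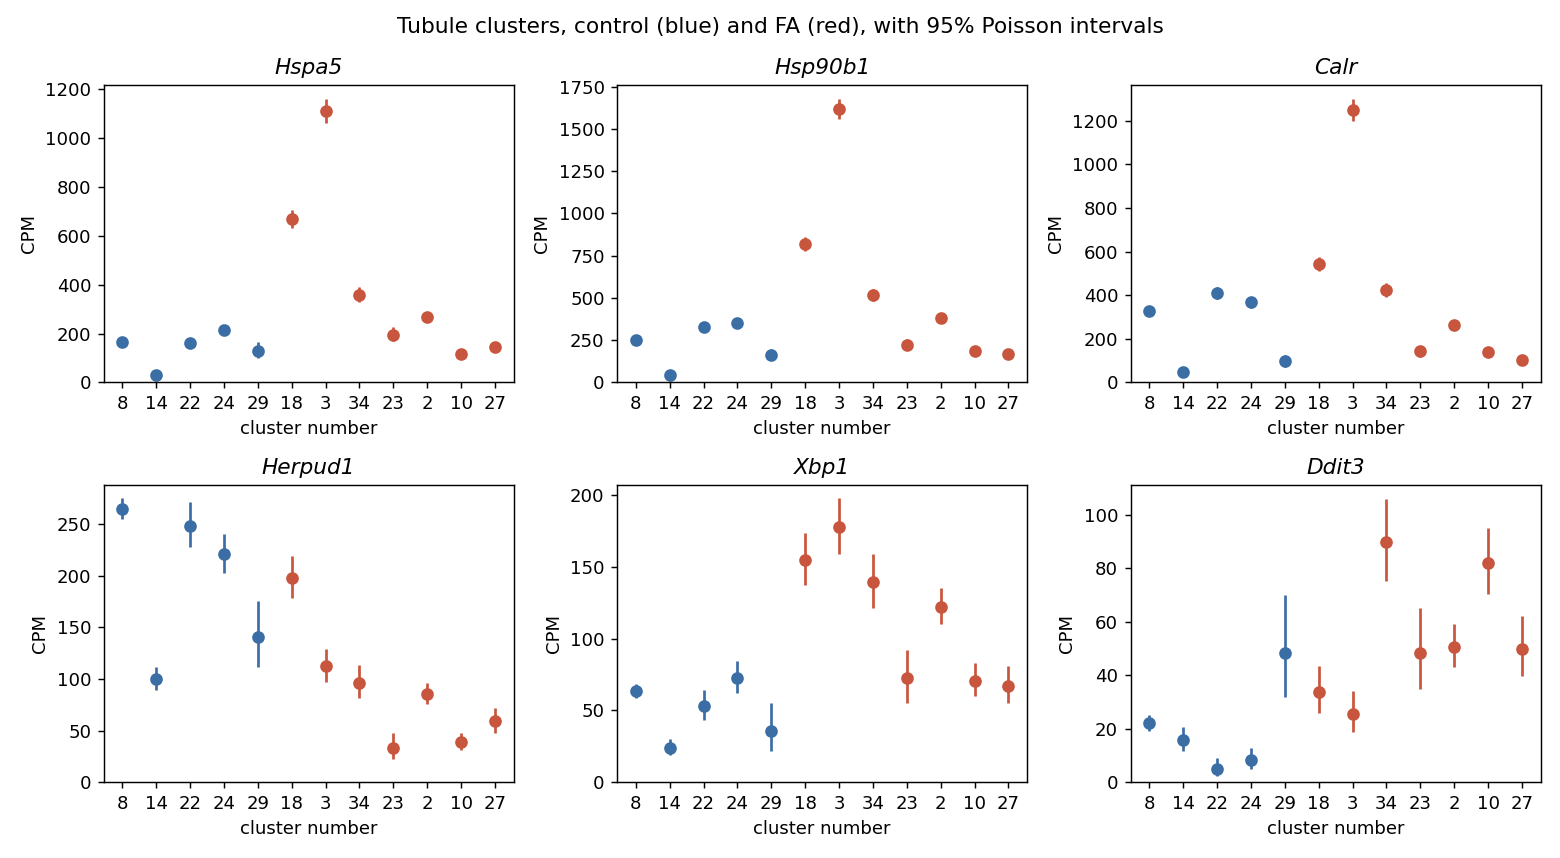
Level in CPM of 6 genes in tubule clusters of control (blue: 8, 14, 22, 24, 29) and FA (red: 18, 3, 34, 23, 2, 10, 27), with bars for 95% Poisson intervals. Hspa5, Hsp90b1 and Calr peak in cluster 3 (1111, 1618 and 1248 CPM), whereas Ddit3 peaks in cluster 34 at 89.6 CPM and Herpud1 in control cluster 8 at 265 CPM.

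Summed over their clusters, injured tubule-like and proximal tubule-like cells of FA had close levels of most members. The summed injured tubule markers of these proximal tubule-like cells were far above those of control, as given above. Havcr1, Krt20 and Lcn2 stood at 12.9, 8.09 and 15.1 CPM in them, against 262, 82.6 and 292 CPM in injured tubule-like cells. The comparison therefore does not set injured against uninjured cells. Of 9 members measured, 1 was at least 1.5-fold higher in injured tubule-like cells and 1 lower, where 30.7% of all genes were higher and 29.8% lower. Ddit3 was higher with a ratio of 1.59 (1.20 to 2.15), and Herpud1 lower with 0.453 (0.392 to 0.525). Hspa5, at 651 and 663 CPM, had a ratio of 0.983 (0.919 to 1.05), and Calr 1.34 (1.24 to 1.44). With each cell weighed the same, 4 members were higher and the Hspa5 log2 ratio was 0.55, whereas the stricter cell filter gave -0.58, so that the Hspa5 difference has no settled direction. Of 69 other pathway genes, 20 were higher and 14 lower, and 17 of 20 dissociation and immediate early genes were higher.

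The remaining classes with 50 or more cells in each library were compared in the same way. In macrophage-like cells 6 of 9 members were higher in FA and 1 lower, beside 27.3% and 21.4% of all genes. In dendritic-like cells 5 of 9 were higher and 0 lower, beside 23.1% and 17%, in B cell-like cells 6 of 9 and 0, beside 18.9% and 14.5%, and in endothelial-like cells 5 of 10 and 1, beside 20% and 21.5%. Podocyte-like cells had 3 of 9 higher and 0 lower, beside 14.2% and 12.3%, stromal-like cells 3 and 0, beside 11.4% and 26.7%, and T cell-like cells 3 and 0, beside 15.4% and 17.9%. Urothelial-like cells had 2 of 9 higher and 0 lower, beside 11.6% and 19.5%, and monocyte-like cells 2 and 1, beside 17.1% and 23.6%. Intercalated-like cells had 1 higher and 5 lower, beside 28.6% and 30.1%.

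By gene, Hspa5 passed 1.5-fold upward in FA in 10 of the 12 classes compared, with ratios from 1.0 to 4.49. Ddit3 was higher in 10 of 12 as well, with ratios from 1.04 in urothelial-like to 2.6 in intercalated-like cells. Hsp90b1 was higher in 7 classes, Atf4 and Pdia4 were higher in 5, Calr and Dnajb9 in 4, and Xbp1 in 3. Among these higher calls, Ddit3 in endothelial-like cells, at 1.56 (0.760 to 2.90) from 11 FA UMIs, has an interval that holds 1. So does Pdia4 in monocyte-like cells, at 1.56 (0.792 to 3.50) from 9 control UMIs. Pdia4, Calr, Xbp1 and Hsp90b1 were each lower in 1 class, the intercalated-like cells, but with doublets kept their log2 ratios there were above 0 (0.79, 0.27, 0.78 and 0.73), and Herpud1 was lower in 4 classes and higher in 1. Over all 109 pairs of a gene and a class measured, 49 were higher and 8 lower. Those 4 intercalated-like pairs are among the 8, and 3 of the 6 higher pairs in plasma cell-like cells were under 1.5-fold without mitochondrial and immunoglobulin UMIs. Over the 12 classes, the share of all genes that were higher ranged from 11.4% to 61.7%, and the share that were lower from 4.12% to 30.1%. The dissociation and immediate early list was higher in FA for 17 of 20 genes in stromal-like cells, 12 of 20 in endothelial-like cells, 11 of 20 in podocyte-like cells and 10 of 19 among B cell-like cells, and for 6 of 20 in macrophage-like and 5 of 20 in dendritic-like cells. Its part in the ratios was not tested.

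Macrophage-like cells had Hspa5 at 571 CPM in control and 1093 CPM in FA, a ratio of 1.91 (1.83 to 2.0). Hsp90b1 had a ratio of 1.97, Calr of 1.85, Pdia4 of 2.07 and Ddit3 of 2.02. Herpud1 went the other way in the same cells, from 195 CPM (182 to 209) to 73.1 CPM (68.8 to 77.7), a ratio of 0.375 (0.342 to 0.411), the lowest of the 12 classes. Control macrophage-like cells lay mostly in cluster 11 and FA cells in clusters 0 and 17. Herpud1 was also lower in monocyte-like cells, at 0.471 (0.354 to 0.633), and in intercalated-like cells at 0.447 (0.231 to 0.795), and it had a ratio of 0.601 (0.334 to 1.0) in endothelial-like cells, from 15 FA UMIs and with an interval that holds 1. It was higher in B cell-like cells, at 1.53 (1.16 to 2.03), from 121 to 185 CPM.

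Dendritic-like cells had Hspa5 at 536 CPM in control, mostly in cluster 38, and at 1271 CPM in FA, mostly in cluster 9, a ratio of 2.37 (2.15 to 2.63). Podocyte-like cells, with Hspa5 at 460.4 and 974 CPM, had a ratio of 2.12 (1.92 to 2.34), but Hsp90b1 at 1.32 and Pdia4 at 1.07 did not pass 1.5-fold there, and Calr had a ratio of 0.824 (0.753 to 0.904). Stromal-like cells had the highest Atf4 ratio of the 12 classes, 2.48 (1.87 to 3.29), from 77.2 to 191 CPM. Of these cells, 51 control cells lay in cluster 39, which held 0 FA cells, and 39 FA cells in cluster 40, which held 4 control cells. Their summed dissociation and immediate early genes stood at 13167 CPM in control and 33690 CPM in FA, whose part in the ratio was not tested.

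Intercalated-like cells, which handle acid and base in the collecting duct and were led here by Atp6v1g3, Slc26a4 and Aqp6, had lower Calr and Hsp90b1 levels in FA. Calr stood at 365 and 167 CPM, a ratio of 0.459 (0.332 to 0.621), and Hsp90b1 at 448 and 235 CPM, a ratio of 0.525 (0.40 to 0.680). Hspa5 was level at 260 CPM in both libraries, a ratio of 1.0 (0.764 to 1.30), and Ddit3 was higher, from 34.3 to 89.1 CPM, a ratio of 2.6 (1.5 to 4.42). Of 55 other pathway genes 31 were lower and 12 higher, beside 30.1% and 28.6% of all genes. Of the 20 dissociation and immediate early genes, 11 were lower. FA cells of this class had a median of 1004 UMIs, against 5680.5 in control. Summed markers of other cells moved as well between control and FA: injured tubule markers from 2519 to 13561 CPM (5 and 1 of 13 at 0), monocyte markers from 96.5 to 1026 CPM (5 and 3 of 9 at 0) and distal convoluted tubule markers from 677 to 182 CPM (2 and 3 of 6 at 0). Their part in the ratios was not tested. With doublets kept and the cells clustered again, the log2 ratios of Calr and Hsp90b1 were 0.27 and 0.73, so their direction depends on the cells taken into the class. Xbp1 and Pdia4, called lower at ratios of 0.665 (0.373 to 1.12) and 0.597 (0.245 to 1.26), have intervals that hold 1.

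Shares of cells with a Ddit3 UMI, after thinning each cell to 1000 UMIs, followed the CPM at the top. They were 21.3% (17.3 to 25.8, exact Clopper-Pearson) in neutrophil-like and 17.6% (14.2 to 21.4) in natural killer cell-like cells of FA. Other FA shares ranged down to 1.63% in proximal tubule-like cells, and the lowest control share was 0 of the thinned plasma cell-like cells, which allows up to 6.72%. Immunoglobulin genes took 71.3% of the summed UMIs of those plasma cell-like cells, and thinning kept them among the 1000. Macrophage-like cells had 3.74% (2.44 to 5.48) in control and 7.96% (6.76 to 9.31) in FA. T cell-like cells had 4.84% (3.02 to 7.30) and 9.26% (7.90 to 10.8), with 375 of 441 control cells in cluster 1, led by Cd8b1 and Ccl5, and FA cells split between that cluster (819) and cluster 4 (824), led by Il17a and Icos. Thinning left out 37 neutrophil-like FA cells with fewer UMIs, and no class is known to lack Ddit3, so that a background share from free RNA could not be set. Neutrophil-like cells also had the highest summed dissociation and immediate early genes, 44484 CPM, and the part of that in their Ddit3 level was not tested.

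**Figure D5:**
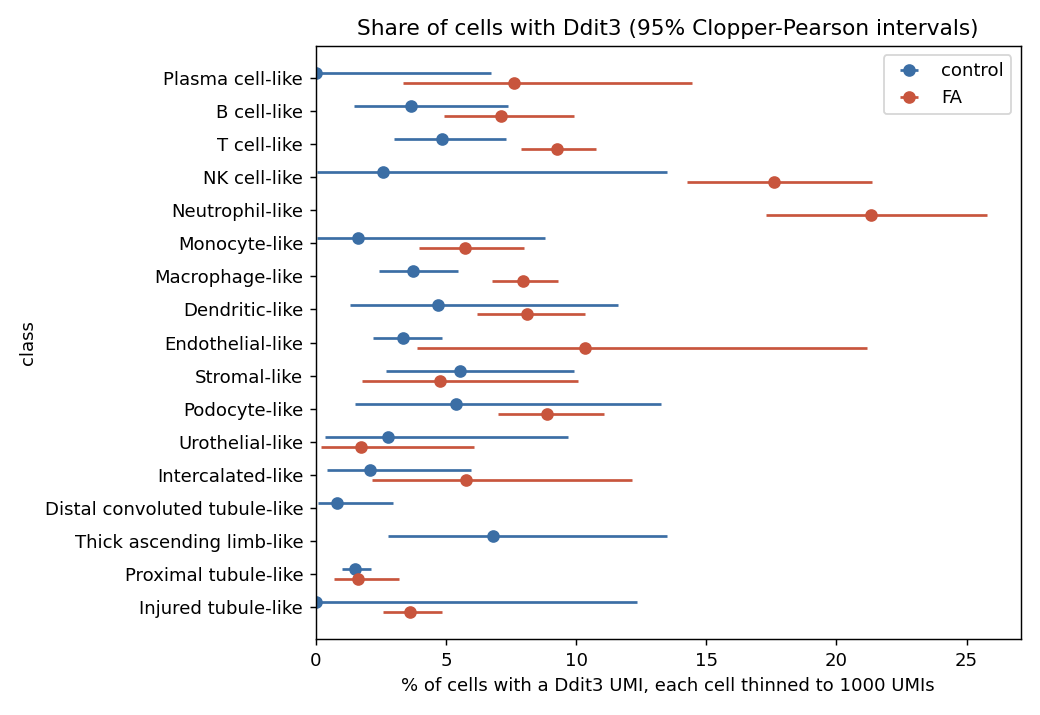
Share of cells with a Ddit3 UMI in each class (points, in percent of cells thinned to 1000 UMIs) with exact 95% intervals, control in blue and FA in red. Neutrophil-like and natural killer cell-like cells of FA lie to the right at 21.3% and 17.6%, and proximal tubule-like cells of both libraries at 1.5% and 1.63%.

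The genes whose profile was most like each member were taken by Spearman correlation of CPM over 29 profiles of a class in a library with 50 or more cells, among 7019 genes. The profiles share libraries and depth, so these values are descriptions. For Hspa5 they were Manf (0.83), Dnajb11 (0.78) and Sdf2l1 (0.75), all from the pathway list. Hsp90b1 was most like Pdia6 (0.83) and Pdia4 (0.80), Calr most like Pdia6 (0.83) and Hyou1 (0.77), Pdia4 most like Hsp90b1 (0.80) and Creld2 (0.80), and Xbp1 most like Derl1 (0.79), Tmed10 (0.74) and Ssr3 (0.72).

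For Atf4 and Ddit3 the likest genes lay outside the list: Tra2b (0.87), Dnaja1 (0.84) and Srsf7 (0.84) for Atf4, and Smndc1 (0.83), Cwc25 (0.83) and Tpm4 (0.81) for Ddit3. Herpud1, with Prr5 (0.55), Man1a (0.54) and Syvn1 (0.47), and Dnajb9, with Tmem248 (0.62), had no close match. Among the members themselves, the correlation over the 29 profiles was 0.77 between Hsp90b1 and Calr, 0.70 between Hsp90b1 and Hspa5, 0.59 between Atf4 and Ddit3, and -0.46 between Herpud1 and Ddit3.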

How the data were processed

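Droplet single-cell RNA sequencing of mouse kidney was analysed from 1 control and 1 FA library. The authors deposited 1 matrix of UMI counts per gene and barcode, and Seurat and mm10 are the tool and build listed, per the submitters' processing notes. Neither an aligner nor an annotation is named in those notes. The library of each barcode was read from its name, and that the part with a C stands for the control rests on that letter. Gene names that differ between the libraries were joined through RefSeq synonyms (230 pairs).

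Cells with at least 200 genes and 500 UMIs and at most 50% mitochondrial UMIs were kept (6295 control and 15922 FA), of which 487 and 2419 were left out as likely doublets by a nearest-neighbour score against simulated doublets, at an expected rate of 0.8% per 1000 cells. Clusters came from Leiden clustering (resolution 1, 30 components, 15 neighbours, 2000 variable genes without the members and pathway genes) and were named from marker lists. A name needed at least 3 markers of the list, each found in 5% or more of the cells. It also needed a mean log2 marker score of at least 1 or a listed marker among the 10 leading genes. A cluster stayed unnamed if another list had more of its leading genes, or if it had few UMIs and no listed marker among them. The thresholds for naming were chosen with the clusters in view.

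UMIs were summed per class and library and scaled to CPM. Intervals are 95% exact Poisson (levels), conditional binomial (ratios) and Clopper-Pearson (shares) intervals, and they cover counting error only. Genes with at least 20 UMIs in the groups compared counted as measured, and were called higher or lower at 1.5-fold. A count of 0 was bounded by 3 counts over the group. The ratio code was checked on simulated data with known folds. With 1 library per group there was no test.

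All 10 members were described, and of 73 further pathway genes the 4 highest and 4 lowest ratios were named among those with 50 or more UMIs. The members and lists were chosen with earlier results of these data known. Alternatives covered the scaling, cell weights, cell filter, doublets, resolution, UMI minimum, gene names and thinning depth. Python 3.11.15, numpy 2.4.6, scipy 1.17.1, pandas 2.3.3, scikit-learn 1.9.0, leidenalg 0.10.2, igraph 0.11.9 and matplotlib 3.10.9 were used.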

Additional observations from a re-analysis of the deposited data

Results flagged for a closer look

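For 3 genes the ratio of FA to control lay on opposite sides of 1 in different classes, each past 1.5-fold with an interval that leaves out 1, and the difference between the classes was not tested. Herpud1 had a ratio of 1.53 in B cell-like cells and 0.375 in macrophage-like cells. Calr had a ratio of 2.62 in plasma cell-like cells and 0.459 in intercalated-like cells, and on other settings a log2 ratio of 0.62 in the first without mitochondrial and immunoglobulin UMIs and of 0.27 in the second with doublets kept. Hsp90b1 had a ratio of 3.48 in proximal tubule-like cells and 0.525 in intercalated-like cells, where its log2 ratio was 0.73 with doublets kept. For Calr and Hsp90b1 the classes therefore did not lie on opposite sides of 1 with doublets kept in intercalated-like cells.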

How the results depend on the processing

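Over 10 alternative settings, 1442 values were recomputed, of which 1278 stayed close to the reported value, 158 moved beyond its interval or by over 1.5 times for a count, and 6 changed direction. The 1278 include 147 values at 1 or more UMIs in each group, 146 at 50 or more UMIs and 147 with gene names as deposited. Those settings do not change a member's level or ratio, so their values could not move. Values with no result under a setting are not among the 1442, and resolution 0.5 gave 129. Without mitochondrial and immunoglobulin UMIs in the totals, the members higher in plasma cell-like cells of FA numbered 3 instead of 6. A share of all genes is given beside the 6 only. On the same scale, the Ddit3 log2 ratio of plasma cell-like over other cells was 0.96 in control and 0.21 in FA. For injured over proximal tubule-like cells of FA, 1 member was higher in the analysis as reported, 4 with each cell weighed the same, 2 with the stricter cell filter and 2 with doublets kept. With doublets kept, the log2 ratios in intercalated-like cells were 0.78 for Xbp1, 0.27 for Calr, 0.73 for Hsp90b1 and 0.79 for Pdia4. Without thinning, the share of cells with a Ddit3 UMI was 12.4% in control and 11.1% in FA proximal tubule-like cells and 32.4% in neutrophil-like cells, which had 12.5% at 500 UMIs per cell. The cause was not tested, except that thinning lowers shares by its construction. At resolution 0.5 proximal tubule-like cells of FA gave no value, since 2 cells were left in the class. No paired analysis was possible because each group has 1 library.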

Other observations

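Clusters that stayed without a name held further high levels of Atf4. In cluster 7, led by Wdfy4, Naaa and Xcr1 and with 782 FA cells, Atf4 stood at 312 CPM (279 to 349), Hspa5 at 1113 CPM (1050 to 1180) and Ddit3 at 103 CPM (84.1 to 124). Its 26 control cells had Atf4 at 137 CPM (82.4 to 214) and Hspa5 at 727 CPM (593 to 884). In cluster 28, led by Areg and Il13 and with 204 FA cells, Atf4 stood at 313 CPM (241 to 401). Both clusters were shallow, with medians of 952 and 772 UMIs per FA cell. In cluster 37 of control, led by Msmp, Stc2 and Ncam1, Herpud1 stood at 278 CPM (252 to 305).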
